A study of Mus musculus with 5 samples.

Results

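Of 16018 assembled transcript loci seen in at least 2 of 5 libraries of mouse follicular regulatory T (Tfr) cells, 2 lay only on the strand opposite to annotated genes. They are described here with the 3 further loci of the same kind that were seen in 1 library. A locus is a stretch that the authors' assembler, StringTie, built from the reads of a library and listed under an identifier of its own, whether or not a gene is annotated there. A row was taken as antisense when it carried a strand, had a TPM (a level scaled to transcript length and to the library total) of at least 1, and overlapped annotated genes of its library's table on the other strand only. Rows of different libraries that overlapped on the same strand were merged, and a merged locus was kept when at least 2 libraries held it. Members were thus chosen by their measured TPM and spans, and the rule uses no difference between the genotypes. It was set with earlier results of these data known.

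The study compared splenic Tfr cells of 2 genotypes, 21 days after imiquimod, an agonist of the innate receptor TLR7 that all 5 libraries share. WT (3 libraries) came from Foxp3-GFP reporter mice. Cebpa_KO (2 libraries) came from Foxp3-Cre Cebpa-flox/flox mice, in which the recombinase is driven by the Foxp3 promoter, so that Cebpa, which encodes the transcription factor C/EBPα, is deleted in Foxp3-expressing cells; the age of the mice is not given in the sources used here. Cells were sorted as live CD4+ cells positive for Foxp3, CXCR5, PD-1 and ICOS, and each library pooled the cells of several mice. The p-values below therefore reflect differences from pool to pool.

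Aligned depth was alike, at 6.76 to 7.08 gigabases per library. Cebpa stood at 12.6 to 18.4 TPM in WT and at 0.317 and 0.553 TPM in Cebpa_KO (limma adjusted p = 0.00371). Foxp3, the defining gene of regulatory T cells, stood at 82.5 to 111 TPM in WT and at 6.73 and 5.61 TPM in Cebpa_KO (limma adjusted p = 0.00115), although both groups were sorted on Foxp3. The groups also differed in sex, since 4 Y-linked genes summed to 149 to 166 TPM in WT and 0 to 0.0312 TPM in Cebpa_KO. Each of the 9 T and Tfr cell markers passed the filter on low values. Of them, 7 (77.8%) were lower in Cebpa_KO at a limma adjusted p under 0.05, against 9.82% of all genes tested. In the other marker sets, 1 of 4 tested CD8 and NK cell genes was lower. The tested B and plasma cell, myeloid, erythroid and stress genes had 0 calls. Summed levels of 9 B and plasma cell markers ran from 4956 to 15302 TPM in WT and from 4355 to 7931 TPM in Cebpa_KO. The sums of 6 erythroid markers were 63.3 to 699 and 236 to 2133 TPM, of 9 myeloid markers 72.0 to 168 and 105 to 392 TPM, of 5 CD8 and NK cell markers 51.4 to 66.7 and 29.9 to 31.1 TPM, and of 6 stress genes 348 to 2896 and 3813 to 4094 TPM. Their part in the results was not tested.

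Antisense transcripts are RNAs copied from the strand opposite to a gene. Some start at their own promoter and are annotated as opposite-strand genes, others are the ends of neighbouring transcripts that run past their gene, and others come from genes or pseudogenes nested inside an intron. A processed pseudogene is a copy of a spliced mRNA that was reverse transcribed and inserted elsewhere in the genome, so it lacks the introns of its parent gene and can lie on either strand of the gene it landed in.

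Both members lay just downstream of such a pseudogene on its strand. The first began 87 to 98 bases after the end of Ppp1r2-ps2, a processed pseudogene in an Iqsec1 intron. The second began 65 bases after the end of Gm15790, a processed pseudogene in a Thsd7b intron. The last coding stretch of each pseudogene is shown beside that of its parent gene, because it shows how closely the copies match where the assembled loci follow. The sequences are GENCODE M21 transcripts (build GRCm38), written 5′ to 3′ and ending at the parent's stop codon; capitals mark bases that differ between the pair or have no counterpart in the other copy.

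Ppp1r2-ps2: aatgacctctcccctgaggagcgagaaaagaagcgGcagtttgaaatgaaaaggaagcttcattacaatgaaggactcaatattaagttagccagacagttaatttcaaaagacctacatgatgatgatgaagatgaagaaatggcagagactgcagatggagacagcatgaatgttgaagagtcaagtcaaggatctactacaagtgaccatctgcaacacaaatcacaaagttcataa
Ppp1r2: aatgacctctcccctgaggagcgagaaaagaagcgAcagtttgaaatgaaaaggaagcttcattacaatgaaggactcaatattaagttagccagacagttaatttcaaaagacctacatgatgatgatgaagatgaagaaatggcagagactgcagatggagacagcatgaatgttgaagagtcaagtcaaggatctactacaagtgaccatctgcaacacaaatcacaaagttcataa
Gm15790: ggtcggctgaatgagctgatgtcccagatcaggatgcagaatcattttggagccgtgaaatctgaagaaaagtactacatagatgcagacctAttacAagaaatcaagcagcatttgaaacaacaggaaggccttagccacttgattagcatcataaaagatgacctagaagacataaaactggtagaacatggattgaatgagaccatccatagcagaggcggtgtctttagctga
Nup54: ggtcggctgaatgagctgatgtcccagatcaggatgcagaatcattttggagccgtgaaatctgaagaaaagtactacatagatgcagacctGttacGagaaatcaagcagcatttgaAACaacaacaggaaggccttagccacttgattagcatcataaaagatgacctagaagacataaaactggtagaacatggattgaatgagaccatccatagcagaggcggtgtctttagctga

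In the last 240 bases, Ppp1r2-ps2 and Ppp1r2 differed at 1 base. Over the same stretch of Nup54, Gm15790 differed at 2 bases and lacked 3. Over their whole length, Ppp1r2-ps2 (635 bases, 1 exon) matched the 6-exon Ppp1r2 transcript at 96.4% of 635 aligned columns, with 9 mismatches and 14 gapped columns. Gm15790 (1251 bases, 1 exon) matched the 12-exon Nup54 transcript at 98.0% of 1254 columns, with 22 mismatches and 3 gapped columns. Each annotated pseudogene ended exactly where the coding part of its parent ends, at transcript position 928 of Ppp1r2 and 1682 of Nup54. The parent transcripts go on for a further 3150 bases (Ppp1r2) and 670 bases (Nup54). The assembled locus inside Iqsec1 covered bases 88 to 453 after its pseudogene, and the locus inside Thsd7b covered bases 66 to 603, which is 67 bases short of the length that remains of Nup54. Whether these stretches hold copies of the parents' 3′ ends was not tested, since no sequence of the mm39 build was used here. Reads from near-identical copies cannot be placed with certainty, so the levels of the pseudogenes, and of the loci if they are copies too, are uncertain.

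**Figure D1:**
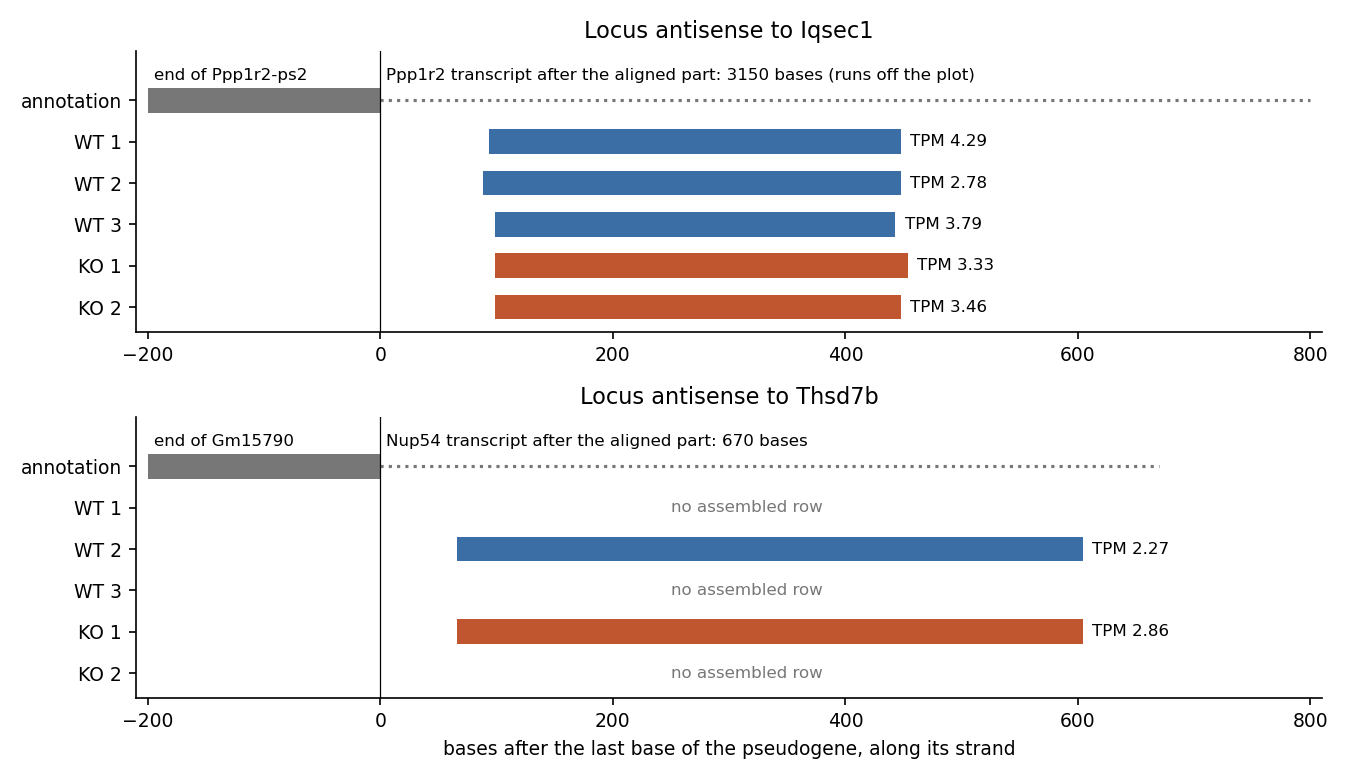
Assembled rows of both members in each library, drawn by their distance in bases after the last base of the pseudogene upstream (grey), along its strand; the dotted line is the length of the parent transcript beyond the aligned part. All 5 libraries (WT blue, Cebpa_KO red) hold a row of 344 to 360 bases after Ppp1r2-ps2, and WT 2 and Cebpa_KO 1 hold an identical row of 538 bases after Gm15790.

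The locus antisense to Iqsec1 was the only antisense locus seen in all 5 libraries. It lies on the plus strand of chromosome 6 at 90883523 to 90883888 (mm39, merged over libraries, 366 bases). Iqsec1, which encodes an exchange factor for ARF GTPases at the membrane, lies on the minus strand at 90633070 to 90965667 and spans 332.6 kb. The whole locus sits inside that span, 82.1 kb from the start of the gene. In GRCm38, Ppp1r2-ps2 overlaps no Iqsec1 exon and lies in an intron of 114.6 kb, with 81.6 kb between its end and the next exon along its strand. The rows of the 5 libraries started within 11 bases of each other and ended within 11 bases, at lengths of 355, 360 and 344 bases in WT and 355 and 349 bases in Cebpa_KO. Their mean coverage was 8.20 to 12.5 reads per base.

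The TPM of this locus was 4.29, 2.78 and 3.79 in WT and 3.33 and 3.46 in Cebpa_KO. Both Cebpa_KO values fell between the WT values, so the groups overlapped. The means were 3.62 ± 0.768 TPM (SD, n = 3) and 3.40 ± 0.0919 TPM (SD, n = 2). On the log2(scaled TPM + 1) scale Cebpa_KO minus WT was -0.06 with an SE of 0.21 and a 95% interval of -0.61 to 0.50 (limma adjusted p = 0.869 over all 16018 loci). At this replication, differences inside that interval cannot be told apart.

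Beside it, Iqsec1 stood at 1.88, 0.816 and 1.08 TPM in WT and 0.813 and 2.59 TPM in Cebpa_KO. The sense gene was thus lowest and highest within the same genotype, and its difference did not pass the test (log2 difference 0.20, limma adjusted p = 0.713). By TPM, the antisense locus was above its sense gene in each of the 5 libraries, by 1.34 to 4.10 times. The library kit does not mark strand, so reads of Iqsec1 RNA from this stretch cannot be told apart from antisense reads. The ratio is thus no measure of antisense against sense RNA. Ppp1r2-ps2, the pseudogene just upstream, stood at 1.65, 1.30 and 1.43 TPM in WT and 1.52 and 1.37 TPM in Cebpa_KO (log2 difference -0.004, limma adjusted p = 0.986). The locus was 2.14 to 2.65 times above the pseudogene. Ppp1r2, on chromosome 16, encodes an inhibitor of protein phosphatase 1 and stood at 25.7, 24.2 and 22.6 TPM in WT and 26.9 and 27.2 TPM in Cebpa_KO (log2 difference 0.16, limma adjusted p = 0.278). The parent was 5.97 to 8.70 times above the locus.

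The locus antisense to Thsd7b was seen in 1 library of each genotype. It lies on the minus strand of chromosome 1 at 129723742 to 129724279 (mm39, 538 bases), and both rows had the same first and last base. Thsd7b, which encodes a thrombospondin-repeat membrane protein, lies on the plus strand at 129201039 to 130147015, a span of 946.0 kb that holds the whole locus. In GRCm38, Gm15790 overlaps no Thsd7b exon and lies in an intron of 40.2 kb, with 20.2 kb between its end and the next exon along its strand. The TPM of the locus was 2.27 in WT 2, with a coverage of 6.67 reads per base, and 2.86 in Cebpa_KO 1, with a coverage of 8.63. The other 3 libraries had no assembled row of any strand there and are listed at 0, which need not mean that no reads lay there. The log2 difference was 0.42 with an SE of 0.84 and a 95% interval of -1.78 to 2.61 (limma adjusted p = 0.758), an interval that holds large differences in either direction.

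Thsd7b itself was close to silent on this scale, at 0.000528, 0.000931 and 0.00441 TPM in WT and 0.0306 and 0.0336 TPM in Cebpa_KO, and was not tested because it did not pass the filter on low values. Gm15790, an annotated gene whose level does not depend on an assembled row, stood at 0.579, 0.649 and 0.665 TPM in WT and 1.23 and 1.04 TPM in Cebpa_KO. It passed the filter on low values through the Cebpa_KO libraries only, the group where it is high. It was not called, and no p-value is read for its log2 difference of 0.39. With a pseudocount of 0.1 the log2 difference was 0.76. Nup54, on chromosome 5, encodes a protein of the nuclear pore channel and stood at 40.7, 39.1 and 36.1 TPM in WT and 54.7 and 49.0 TPM in Cebpa_KO. Over all annotated genes tested, 9.93% were higher in Cebpa_KO. Nup54 was among them (log2 difference 0.42, limma adjusted p = 0.0413), the only one of these 6 annotated genes to pass, with Thsd7b not tested and the test of Gm15790 not read. That call was lost without any single library (adjusted p = 0.0564, 0.112 and 0.0546 without WT 1, 2 and 3, and 0.237 and 0.139 without Cebpa_KO 1 and 2), without the filter (0.142) and with the replicate number as a paired block (0.0707).

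**Figure D2:**
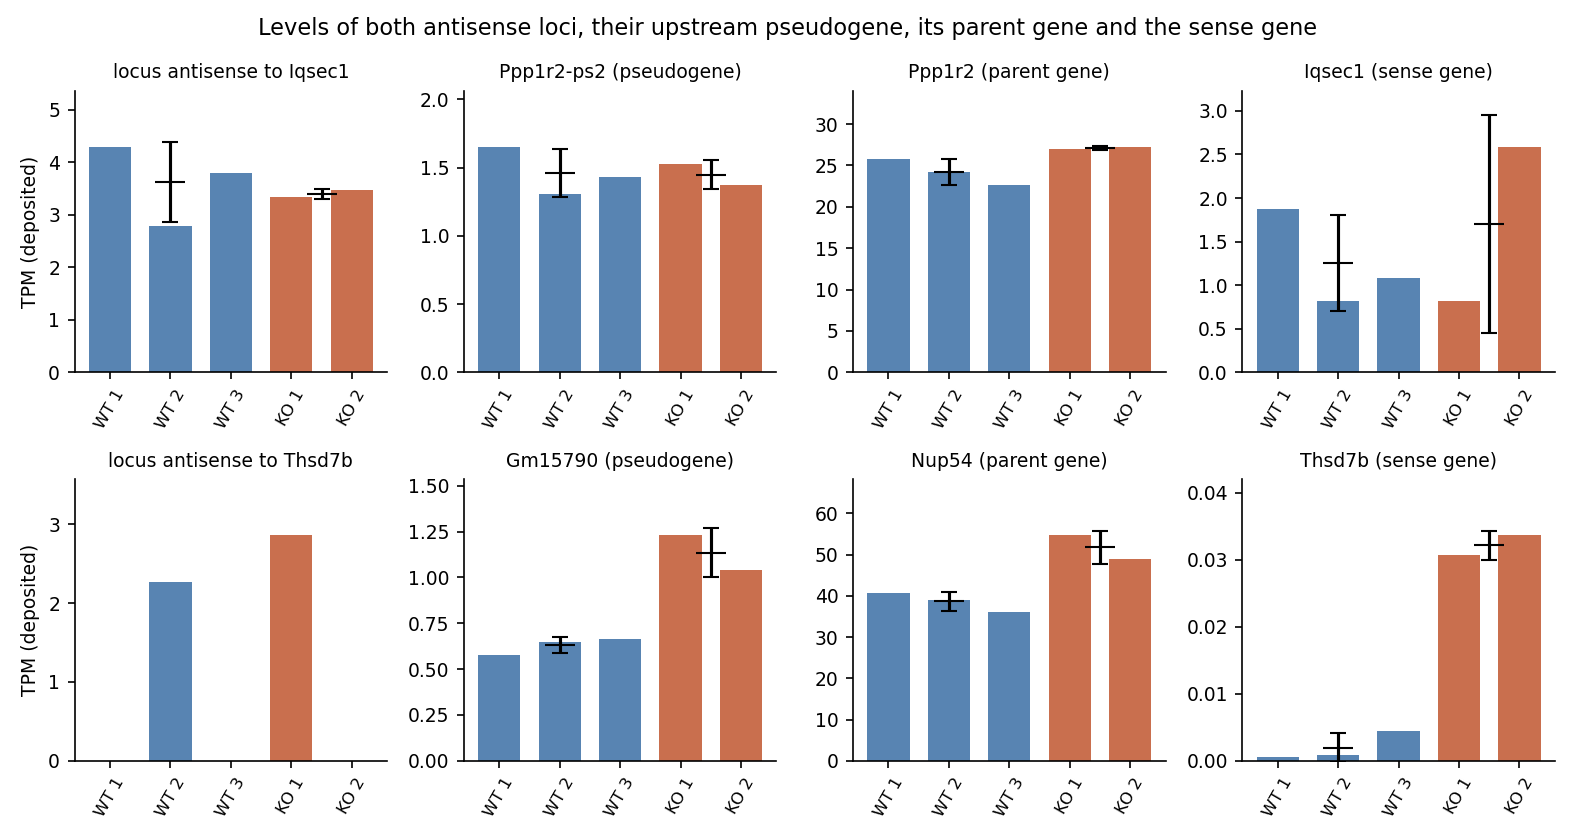
TPM by library of each member, the pseudogene upstream of it, the parent gene and the sense gene (bars, linear axes from 0 that differ between panels; black marks, mean ± SD of each group, left out where libraries are listed at 0). The locus antisense to Iqsec1 stands at 2.78 to 4.29 TPM with overlapping groups; the locus antisense to Thsd7b appears in 1 library of each genotype.

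Neither member was called different between the genotypes. Of the 12884 loci of all kinds seen in all 5 libraries, 10.2% were higher and 10.1% lower in Cebpa_KO at a limma adjusted p under 0.05. Only 1 member was in that set, and with 1 locus a count of 0 cannot be read against those shares. By unadjusted p under 0.05 the count over both members was also 0. The summed TPM of both members was 4.29, 5.05 and 3.79 in WT and 6.19 and 3.46 in Cebpa_KO, with the Thsd7b locus taken as 0 where no row was assembled. Cebpa_KO held both the highest and the lowest library (means 4.38 ± 0.634, SD, n = 3, and 4.83 ± 1.93, SD, n = 2; exact permutation p = 0.8, two-sided, where 3 against 2 libraries cannot go below 0.1).

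The 3 antisense loci outside the membership were each seen in 1 WT library, and their second highest library was at 0, against 2.27 TPM for the lower member. A locus of 2916 bases inside Gm26630, a noncoding gene model on chromosome 14 (plus strand, 16061171 to 16064086), was at 1.62 TPM in WT 2. In WT 1 and WT 3 most of the same stretch belonged to rows that reached back into the annotated pseudogene Lamtor3-ps, at 3.48 and 2.39 TPM. In Cebpa_KO 1 and 2 only its later part, from 16062731 and 16062812 on, lay in rows without a strand, at 2.29 and 2.81 TPM. A locus of 582 bases inside 4933427G23Rik on chromosome 5 (plus strand, 24025956 to 24026537) was at 2.67 TPM in WT 3. In each of the other 4 libraries that stretch was part of a longer plus-strand row that also overlapped a gene on its own strand, at 7.80 to 13.9 TPM. A locus of 266 bases inside Slc36a3, a gene of an amino acid transporter family, on chromosome 11 (plus strand, 55022508 to 55022773) was at 2.51 TPM in WT 1. In Cebpa_KO 2 it lay within a longer plus-strand row of 12.98 TPM that reached the annotated opposite-strand gene Slc36a3os, WT 2 and WT 3 had rows on the strand of Slc36a3, and Cebpa_KO 1 had no row.

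By the rule, a stretch counts as antisense only where its row was kept apart from the gene next to it and given a strand. Both Cebpa_KO libraries held assembled rows of another class at 2 of these 3 places, and Cebpa_KO 2 held one at the third. The number of antisense rows was 2, 3 and 2 in WT and 2 and 1 in Cebpa_KO, with overlapping groups (exact permutation p = 0.6, two-sided). Their summed TPM was 6.80, 6.67 and 6.47 in WT and 6.19 and 3.46 in Cebpa_KO. These sums include the 3 loci that passed the minimum TPM in 1 WT library each, so a test of them cannot compare the genotypes. They only describe the rows that met the rule, and no conclusion is drawn from them. Over the members alone the groups overlapped.

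Closeness to a gene on the same strand was shared by most antisense loci. Of the 5, 4 began within 1000 bases downstream of an annotated gene on their own strand: both members, the locus inside Gm26630 (954 bases after Lamtor3-ps) and the locus inside 4933427G23Rik (588 bases after Rint1, a gene of vesicle tethering). The locus inside Slc36a3 lay 5060 bases from Slc36a3os, on its upstream side. For comparison, 20 of 79 stranded loci that overlapped no gene at all were within 1000 bases downstream of a gene on their strand. With 5 loci, this is a description and no test was made.

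Antisense-only rows were the rarest class of assembled rows in each library. At a TPM of at least 1 a library held 16125 to 16792 assembled rows, 15347 to 15779 of them with a strand, and antisense rows made up 0.00645% to 0.0195% of the stranded ones. Rows on the strand of a gene only numbered 9701 to 10044, and rows that overlapped genes on both strands 5545 to 5712. A further 21 to 31 stranded rows lay outside genes. Rows without a strand numbered 510 to 748 outside genes and 268 to 360 inside genes. Rows without a strand, and rows that joined genes of both strands, could not be assigned to sense or antisense here. The library kit does not mark strand, and the tables do not record what gave a row its strand. The strand of the antisense rows, including both members, is therefore uncertain too.

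**Figure D3:**
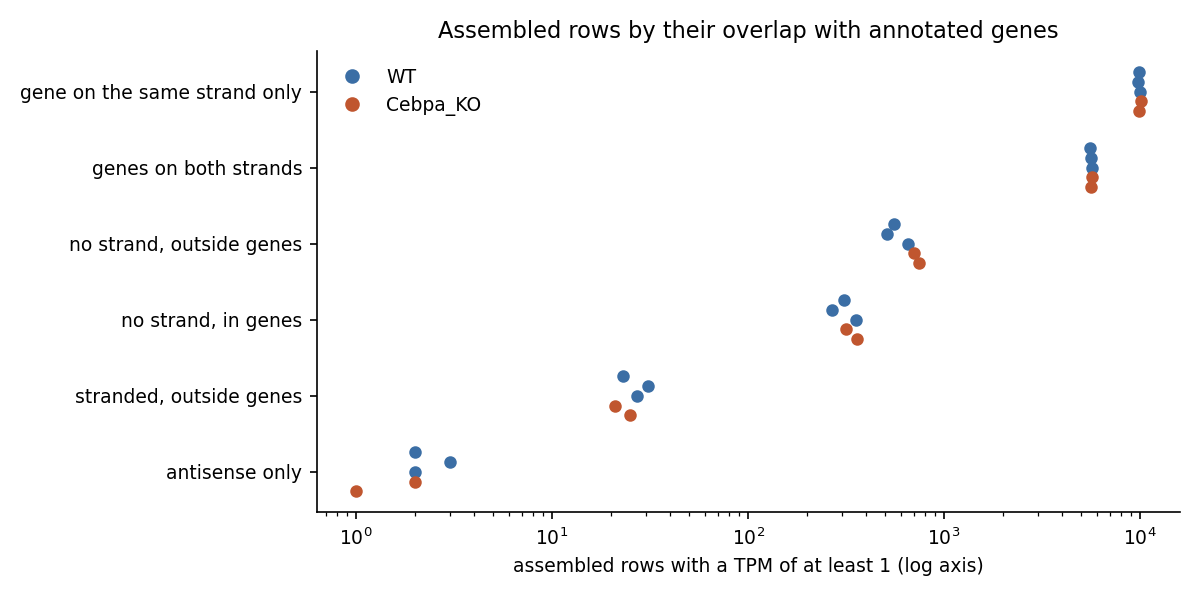
Number of assembled rows with a TPM of at least 1 in each library (points, WT blue, Cebpa_KO red, log axis), by overlap with annotated genes. Antisense-only rows number 1 to 3 per library, against 268 to 360 rows without a strand inside genes.

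None of the 5 antisense loci lay opposite a gene of a list of 93 genes of regulatory, follicular and activated T cells, which includes Foxp3, Ctla4, Bcl6, Cxcr5, Il1r2 and Cebpa. The tables hold 57186 annotated gene IDs, so with 5 loci this absence is not read as a result. In that list 11 genes were higher and 30 lower in Cebpa_KO, with a median log2 difference of -0.29, against 0.01 over all 16254 annotated genes tested. Over those 16254 genes, 9.93% were higher and 9.82% lower. The list was chosen with earlier results of these data known and holds the deleted gene Cebpa. Its counts describe the list and say nothing about the antisense loci.

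The annotation itself also holds genes named by the ending os, for opposite strand, after a partner gene. They were listed by that name alone. Some do not overlap their partner, so the list is not a measure of antisense transcription. Of 313 such genes, 53 passed the filter on low values, 4 were higher in Cebpa_KO and 5 lower, which is 7.55% and 9.43% of those tested. Among those called, Kirrel3os and Stk35os1 reached a TPM of 1 in Cebpa_KO only, and Atcayos in WT only. They entered the test through the group where they are high, so their calls are not read as results. The counts and shares above still include these genes, so they only describe the list and are not set against the shares over all genes. The median log2 difference of the 53 was -0.07. Without either Cebpa_KO library 0 of the 9 calls remained, and over all genes the 1614 higher and 1596 lower calls came down to 34 and 23 in all without Cebpa_KO 1 and 2. Where such a gene overlaps its partner, a kit that does not mark strand leaves the source of shared reads unknown; 39 of the 53 overlap it.

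The 4 genes that were higher in Cebpa_KO all overlap their partner. Wdr83os, which encodes a small protein of the endoplasmic reticulum, rose from 130, 142 and 116 TPM in WT to 219 and 220 TPM in Cebpa_KO (log2 difference 0.77, SE 0.09, limma adjusted p = 0.00923), while Wdr83 showed a log2 difference of -0.30 that did not pass (limma adjusted p = 0.147). Zfp593os was at 6.31, 5.77 and 6.44 TPM in WT and 13.6 and 12.7 TPM in Cebpa_KO (log2 difference 0.99, limma adjusted p = 0.0117), and its partner Zfp593, a zinc finger gene, was also higher (0.63, limma adjusted p = 0.0386). Kirrel3os went from 0.074, 0.323 and 0.0699 TPM to 2.57 and 2.01 TPM (log2 difference 1.51), with Kirrel3, a cell adhesion gene, higher too (1.30). Both reached a TPM of 1 in Cebpa_KO only, so they entered the test through the group where they are high. No p-value is read for this pair, whose shared reads cannot be told apart. Stk35os1 was at 0.505, 0.653 and 0.727 TPM in WT and 1.45 and 1.65 TPM in Cebpa_KO (log2 difference 0.65). It too passed the filter on low values through Cebpa_KO only. The kinase gene Stk35 did not pass the test (0.42, limma adjusted p = 0.103).

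Among the 5 lower genes, Lef1os1 overlaps Lef1, which encodes a transcription factor of T cell development. It stood at 22.9, 30.1 and 16.8 TPM in WT and 10.1 and 7.91 TPM in Cebpa_KO (log2 difference -1.24, SE 0.24, limma adjusted p = 0.0265), whereas Lef1 overlapped between the groups and did not pass (-0.40, limma adjusted p = 0.64). Atcayos fell from 3.60, 3.86 and 3.49 TPM to 0.962 and 0.55 TPM (log2 difference -1.41), and passed the filter on low values through WT only. Its partner Atcay was lower too (-0.55, limma adjusted p = 0.0348). Arhgap27os3 fell from 18.0, 19.9 and 14.2 TPM to 8.52 and 9.71 TPM (log2 difference -0.84, limma adjusted p = 0.0243), and Arhgap27 did not pass (-0.44, limma adjusted p = 0.065). Tmem147os is annotated as 2 gene IDs that do not overlap Tmem147, and both were lower (log2 differences -0.77 and -0.96, limma adjusted p = 0.0295 and 0.0376), while Tmem147 was higher (0.51, limma adjusted p = 0.0311). The 2 IDs overlap each other on the same strand, so they are not independent.

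**Figure D4:**
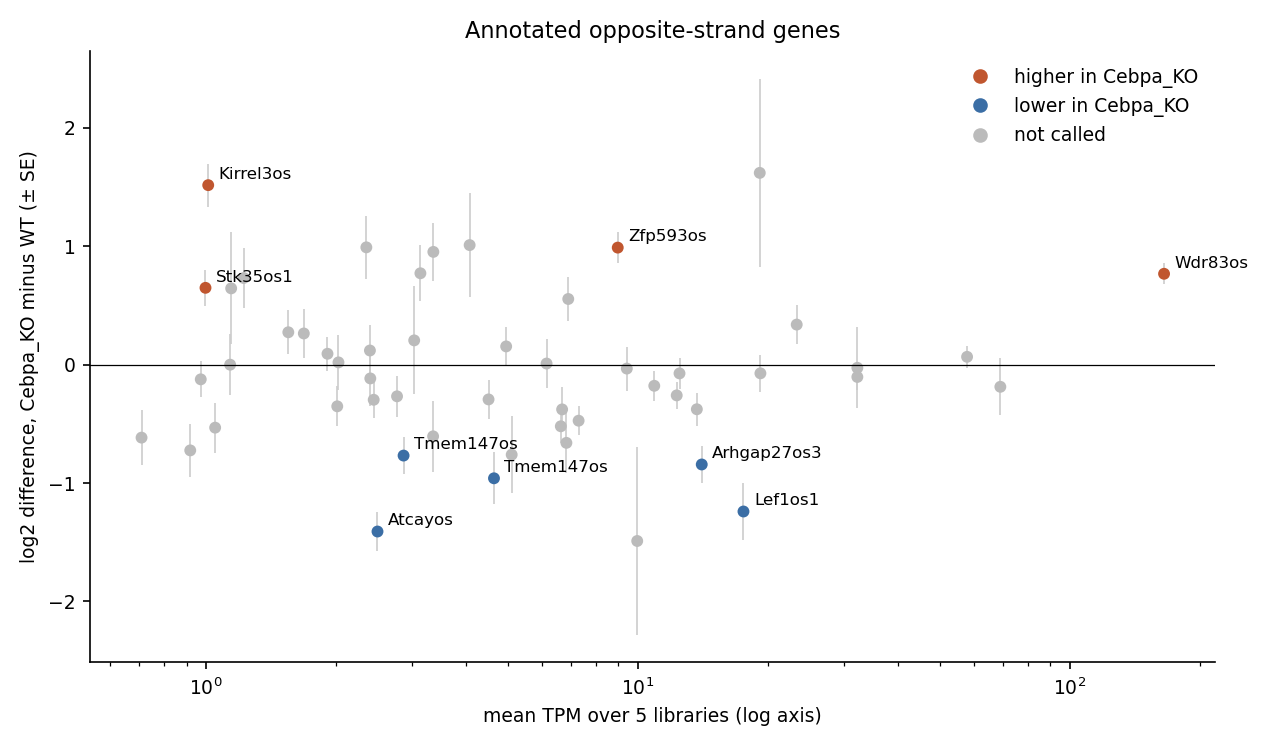
Log2 difference (Cebpa_KO minus WT, bars ± SE) against mean TPM (log axis) of the 53 annotated opposite-strand genes tested; named points passed a limma adjusted p of 0.05. The 4 higher and 5 lower genes spread over the range of levels, with Wdr83os the most abundant. Kirrel3os and Stk35os1 passed the filter on low values through Cebpa_KO only, and Atcayos through WT only.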

How the data were processed

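RNA-seq of sorted Tfr cells gave 5 libraries, 3 WT and 2 Cebpa_KO. Alignment used STAR 2.7.11b and assembly StringTie 2.1.3b on mm39, per the submitters' processing notes. The sources used here do not give the annotation release or the strand setting. Per the labels' protocols, libraries were made with SMART-Seq v4 and Nextera XT. Each table lists TPM, FPKM and coverage, per the file headers. The authors' TPM column was handled as a score, because assembled rows sum to 1000000 and annotated gene rows repeat 96.7% to 97.6% of it. The FPKM and the coverage, a signal per base, deposited by the authors served for depth (their ratio).

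Libraries were divided by their median ratio (factors 0.984 to 1.03 over loci and 0.984 to 1.04 over genes) over those seen in all 5. Loci seen in at least 2 libraries, and genes that reached a TPM of 1 in 2 or more, were tested on log2(scaled TPM + 1), which understates changes of low genes, with limma 3.58.1 (R 4.3.3, intensity trend) and Benjamini-Hochberg adjustment at 0.05. No counts are in these tables, so no count model or counting interval was used. Values per library had an exact permutation test over 10 splits. The fit was tested on simulated data. Opposite-strand genes were those with symbols ending in os, os1 to os4, of which 313 of 338 had a stem that is itself a gene symbol; the others, such as Icos, were dropped after the data were seen. Pseudogenes were aligned to GENCODE M21 protein-coding transcripts with blastn 2.17.0+ (expect 1e-10); no coordinates were moved between builds. By rule, the text names loci by the sense gene they overlap most: the 10 with the highest mean, the largest calls, those seen in 1 genotype only and those of listed sense genes; with 5 antisense loci, all are named. The members and gene lists were chosen with earlier results of these data known. The neighbouring pseudogenes, their parent genes and the called opposite-strand genes were named after their values were seen. Alternatives varied the pseudocount, scaling, thresholds, merging, filter, trend, replicate block and libraries.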

Additional observations from a re-analysis of the deposited data

How the results depend on the processing

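Counts of called members stayed at 0 in each of the 16 alternatives. The log2 difference of the locus antisense to Iqsec1 ranged from -0.21 to 0.053 and changed sign without WT 1 (0.053), with adjusted p of 0.435 to 0.982. That of the locus antisense to Thsd7b ranged from 0.14 to 1.39 in 14 alternatives, with adjusted p of 0.43 to 0.944; without WT 2 or Cebpa_KO 1 it is no member and has no value. The difference in summed TPM went from 0.449 to between -0.915 and 1.81 when single libraries were left out, the extremes being without Cebpa_KO 1 and 2. Sense genes called went from 0 to 1 without the filter, where Thsd7b enters the fit. Iqsec1 changed sign without Cebpa_KO 2 (-0.28, against up to 0.70 without Cebpa_KO 1), and Ppp1r2-ps2 without WT 1 (0.055) and Cebpa_KO 2 (0.046), against down to -0.065 without WT 2. Opposite-strand genes higher and lower, with alternatives chosen after seeing the data, numbered 1 and 1 without the filter, 5 and 3 with the replicate block, and 0 to 7 and 0 to 7 without single libraries (7 higher without WT 3; 1 and 2 lower without WT 1 and WT 2; 0 of either without Cebpa_KO 1 or 2).

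With the replicate number as a paired block, the differences were -0.01 (Iqsec1 locus) and 0.14 (Thsd7b locus). The labels do not say that numbers pair the libraries, and same-numbered deviations correlated at -0.18 and 0.27. Genes called numbered 1979, 827 and 4002 without WT 1, 2 and 3, and 34 and 23 without Cebpa_KO 1 and 2, fits in which the lone Cebpa_KO library is assumed to vary like the WT libraries.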
